A study of Mus musculus with 23 samples.

Results

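The matrix metalloproteinases (Mmp), the Adamts proteases and their inhibitors, the Timp proteins, were followed in the glands and eyelid of the mouse eye. Members were all genes whose symbol is Mmp, Adamts or Timp followed directly by a digit, which gave 46 genes: 23 Mmp, 19 Adamts and 4 Timp genes. A probe was matched to 45 of them through its RefSeq accession, with Mmp27 as the exception, and 35 (13 Mmp, 18 Adamts and 4 Timp genes) were bright enough in at least 1 group to be tested among 16323 genes. The arrays compared the lacrimal gland (LG, source of the watery tear fluid), the harderian gland (HG, a lipid-secreting gland of the orbit) and the eyelid with the ocular conjunctiva. All mice had the background strain B6/CL, and the labels name no further allele or agent. At embryonic day 16.5 epithelium and mesenchyme of each tissue had been separated, giving 6 groups of 3 arrays. At 7 weeks the LG (2 arrays) and the HG (3 arrays) were taken whole, so an adult value mixes all cell types of the gland.

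Matrix metalloproteinases are zinc enzymes that cut collagens, proteoglycans and other matrix proteins, and most are made as inactive precursors. The Adamts enzymes are secreted relatives with thrombospondin repeats that cut proteoglycans such as versican and aggrecan, trim the amino-terminal propeptides of procollagens or act near fibrillin microfibrils. Timp proteins bind the active site of metalloproteinases, and Timp3 also inhibits several Adamts and Adam enzymes. In glands that branch, such as the lacrimal gland, remodelling of the matrix between epithelial buds and the mesenchyme is a known part of growth.

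The promoter sequences are shown because the members fall into different classes by the letters just before their start sites. Of the 46 members 32 had an entry in a RefSeq promoter table (GRCm38.p6). Counted along chromosome 9, 10 Mmp genes were consecutive protein-coding neighbours: Mmp13, Mmp12, Mmp1b, Mmp3, Mmp1a, Mmp10, Mmp8, Mmp27, Mmp20 and Mmp7. In the 250 bases before each start, searched on both strands, TGANTCA (which includes the AP-1 motif) was found in 8 of these 10 genes and in 0 of the 22 other members, against 6.75 percent of all 32851 promoters. TATAAA, the TATA box, was found in 7 of the 10 and in 2 of the 22, against 12.4 percent of all. GGGCGG, the core of the GC box, was found in 0 of the 10 and in 16 of the 22, against 32.7 percent. No letter of 1 motif can belong to a match of another, and a match is only a description of the letters. Where a member had 2 starts a match before either was counted. The shares of all promoters count every start separately, so they are not counted in the same way. The 120 bases before the start are given 5′ to 3′ on the gene's own strand, with matches to the 3 motifs in capitals on either strand. Mmp3 (chr9:7445702-7445821, plus strand) was higher in both adult glands than in the embryonic compartments of the same gland. Mmp7 (chr9:7691970-7692089, plus strand) was called higher in adult LG than in embryonic LG, with 1 of 2 adult LG arrays above background, but not higher than in embryonic eyelid epithelium. Mmp13 (chr9:7272394-7272513, plus strand) and Mmp8 (chr9:7558309-7558428, plus strand) are collagenases of the same cluster, and Mmp8 held no match. Mmp14 (chr14:54431478-54431597, plus strand), Timp1 (chrX:20870046-20870165, plus strand) and Adamts18 (chr8:113848840-113848959, minus strand) lie elsewhere.
Mmp3: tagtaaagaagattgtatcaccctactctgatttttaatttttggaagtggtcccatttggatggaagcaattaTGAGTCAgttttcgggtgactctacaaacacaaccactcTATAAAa
Mmp7: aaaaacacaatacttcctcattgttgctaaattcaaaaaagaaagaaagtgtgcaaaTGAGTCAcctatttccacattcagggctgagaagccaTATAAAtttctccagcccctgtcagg
Mmp13: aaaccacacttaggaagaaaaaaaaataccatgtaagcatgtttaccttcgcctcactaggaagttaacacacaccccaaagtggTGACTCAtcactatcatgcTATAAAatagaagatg
Mmp8: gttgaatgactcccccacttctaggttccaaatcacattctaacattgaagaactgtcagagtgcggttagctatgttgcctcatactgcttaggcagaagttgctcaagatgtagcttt
Mmp14: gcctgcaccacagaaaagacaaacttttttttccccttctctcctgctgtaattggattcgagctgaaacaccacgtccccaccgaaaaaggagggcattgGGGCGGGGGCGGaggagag
Timp1: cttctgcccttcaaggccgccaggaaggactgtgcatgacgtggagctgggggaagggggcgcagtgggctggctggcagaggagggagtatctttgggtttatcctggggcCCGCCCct
Adamts18: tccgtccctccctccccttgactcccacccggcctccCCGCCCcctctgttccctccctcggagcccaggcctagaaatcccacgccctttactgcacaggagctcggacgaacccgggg

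Signal below is log2 of a probe's background-subtracted intensity minus that array's 75th percentile, so 0 is that percentile and values of different probes are not set against each other. Between 42.4 and 64.6 percent of spots per array were well above background, and the 75th percentile was 194 and 139 intensity units on the adult LG arrays against 313 to 857 on the rest. An array at a lower intensity leaves dim probes at a higher scaled value, so a member below background in an adult gland has no level that can be compared. Summed over 15 epithelial markers such as Epcam and Cdh1, in units of the 75th-percentile signal, the embryonic epithelia held 343 to 1143 and the mesenchymes 10.2 to 224, with the eyelid mesenchyme highest among mesenchymes. Summed over 15 mesenchymal markers such as Col1a1 and Pdgfra, the mesenchymes held 1692 to 2470.0, the epithelia 141 to 316, adult LG 152 to 172 and adult HG 318 to 652. Each of the 15 mesenchymal markers was above background on at least 1 array of every embryonic epithelium, whereas Twist1, Twist2 and Cdh11 were not in adult LG. In these bulk samples fewer cells of a type and less RNA per cell cannot be told apart. The labels do not say whether arrays came from separate animals, so the tests weigh differences against the scatter of arrays only, which may be technical.

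The members were detected most widely in embryonic mesenchyme and least in the adult LG. Well above background on every array were 31 of 45 members in LG mesenchyme, 30 in HG mesenchyme and 29 in eyelid mesenchyme, against 26, 21 and 22 in the epithelia, 13 in adult LG and 19 in adult HG. Of all spots, 53.6 to 64.6 percent were well above background on the embryonic arrays. The adult LG arrays had 50.3 and 42.4 percent, and the adult HG arrays 49.4 to 58.6 percent. The share of all genes detected on every array of a group was not counted, and the part of array sensitivity in the members' counts was not tested. Of the 35 tested members, 13 had their highest mean in LG mesenchyme, 7 in HG mesenchyme and 5 in eyelid mesenchyme, which held the highest mean of 10.5, 10 and 6.69 percent of all genes. For 11, 5 and 4 of these members the lowest array of that group lay above the highest array of the next group, which was so for 4.64, 3.96 and 3.22 percent of all genes. The remaining peaks fell in HG epithelium (3 members), adult HG (3), LG epithelium (2), adult LG (1) and eyelid epithelium (1).

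**Figure D1:**
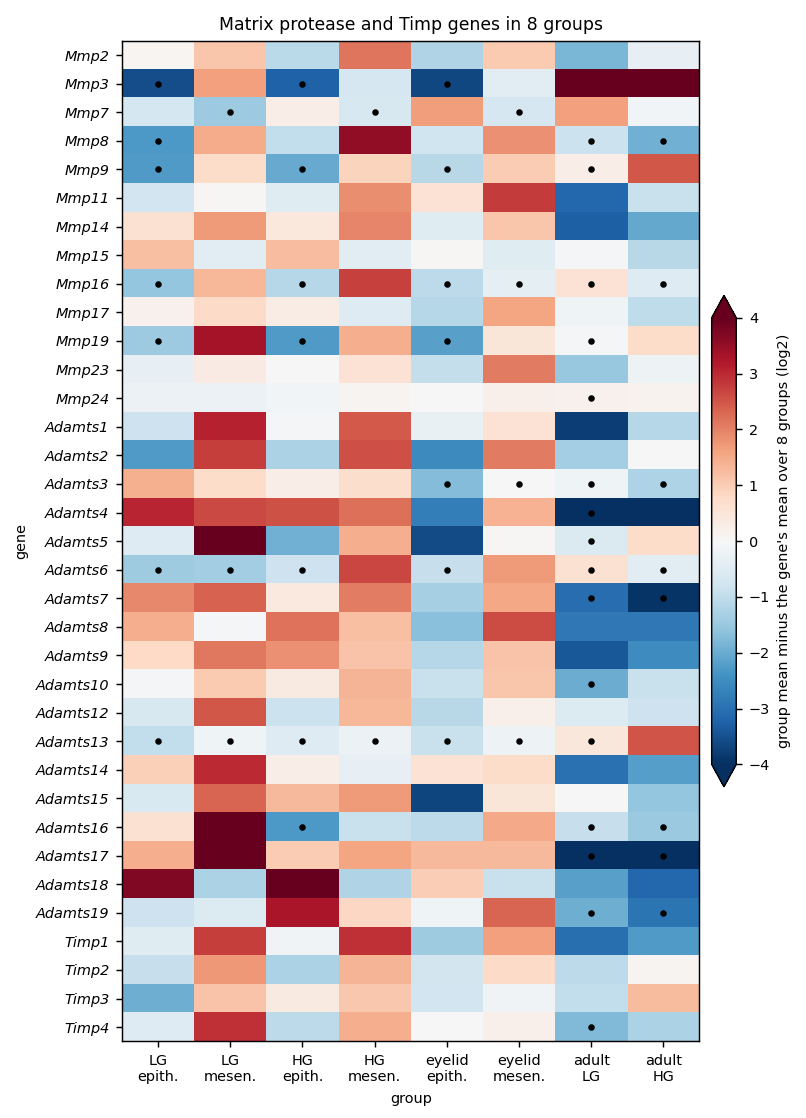
Each row is 1 of the 35 tested members and each column 1 of the 8 groups; colour gives the group mean minus the gene's own mean over the 8 groups (log2, red above and blue below, limited at -4 and 4), and a dot marks a group in which no array was well above background. The 3 mesenchyme columns are red for most genes, Adamts18 is red in the epithelia, and Mmp3 is dark red in both adult glands.

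Epithelium and mesenchyme differed in most members. Averaged over the 3 tissues, 3 members were higher and 29 lower in epithelium (limma's moderated test, adjusted p under 0.05), while over all genes 70.6 percent were called, 38.7 percent higher and 31.9 percent lower. The members' median difference was -1.66 against 0.09 for all genes, and within slides 1, 2 and 3 it was -1.71, -1.70 and -1.61. Restricted to the 20 members above background on every array of both compartments, 2 were higher and 17 lower. The matching share of all genes under this restriction was not counted, here or for the restricted counts further below. Within LG 4 were higher and 22 lower (58.6 percent of all genes, 32.1 higher and 26.5 lower), within HG 6 and 21 (57.9 percent, 29.8 higher and 28.1 lower), and within the eyelid 3 and 26 (51.2 percent, 25.7 higher and 25.5 lower), where 2 of the 26, Mmp16 and Adamts3, were not above background on any eyelid array. Median differences of the members were -1.32, -1.40 and -2.19 in LG, HG and eyelid. The mesenchymal marker sums given above move with these differences. So did other cell types: 9 of 10 endothelial markers were lower in epithelium (median -4.27), with sums of 14.4 to 30.7 in the epithelia and 58.1 to 107 in the mesenchymes. All 8 macrophage markers tested were lower too (median -3.55), with sums of 3.93 to 11.9 and 56.2 to 86.0. The part of any of these cell types in the members' differences was not tested.

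**Figure D2:**
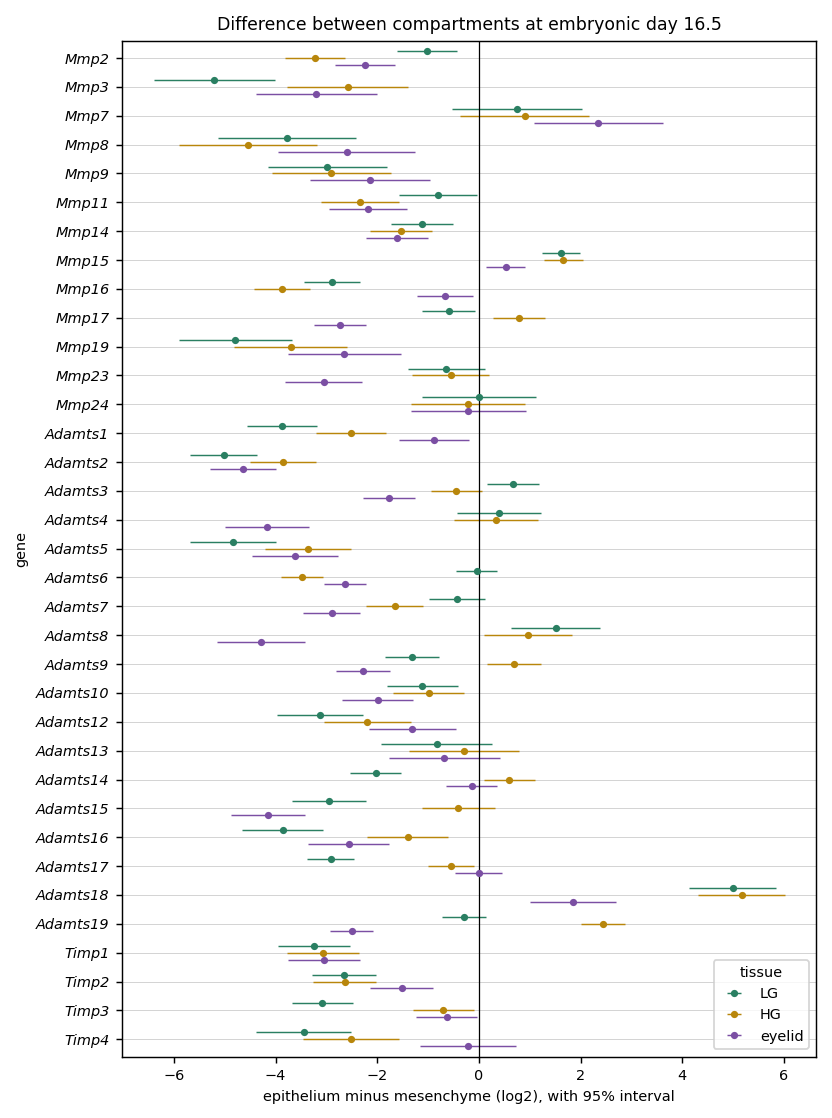
The x axis is epithelium minus mesenchyme (log2) at embryonic day 16.5 and the y axis lists the 35 tested members; points are estimates from 3 against 3 arrays for LG (green), HG (gold) and eyelid (purple), and lines are 95% intervals. Most points lie left of 0, Adamts18, Mmp15 and Mmp7 lie right of it in every tissue (Mmp7 called in the eyelid only), and Adamts19, Adamts8 and Adamts4 have tissues on different sides.

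Among the inhibitors, Timp1 was lower in epithelium in each tissue, by a similar size. Its signal was -0.57, -0.45 and -0.38 in LG epithelium against 2.83, 2.63 and 2.88 in LG mesenchyme. The HG gave -0.45, -0.15 and 0.17 against 2.89, 2.79 and 3.12, and the eyelid -1.44, -1.64 and -1.14 against 1.88, 1.50 and 1.56. No epithelial array reached any mesenchymal array. Timp1 was 8.73-fold lower in epithelium (difference -3.13 ± 0.19 SE, adjusted p = 5.97e-11), and by tissue the difference was -3.25, -3.08 and -3.06. An F test of whether it depended on the tissue gave F = 0.0977 (adjusted p = 0.940).

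Timp2, which also takes part in the activation of Mmp2 by Mmp14, was lower in epithelium in all 3 tissues. It read 4.73, 4.49 and 4.36 in LG epithelium and 7.28, 7.09 and 7.18 in LG mesenchyme, and 3.94, 4.22 and 4.37 against 6.85, 6.71 and 6.87 in the HG. The eyelid gap was smaller, with 4.77, 4.59 and 4.78 against 6.48, 5.96 and 6.25. The differences were -2.66, -2.64 and -1.52 (F = 4.85 for the dependence on tissue), with no overlap between compartments.

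Timp3, the inhibitor that binds to the matrix itself, differed by gland. It read 1.63, 1.40 and 1.52 in LG epithelium against 4.73, 4.54 and 4.54 in LG mesenchyme. In the HG the epithelium read 4.23, 3.48 and 3.78, close under the mesenchyme at 4.55, 4.53 and 4.51, and in the eyelid 2.67, 2.77 and 2.67 against 3.46, 3.32 and 3.21. The epithelium was lower by 8.49-fold in LG (adjusted p = 3.48e-08) and by 1.63-fold in HG (adjusted p = 0.0436). The HG call was lost with any of 5 of the 6 HG arrays left out, the exception being epithelium replicate 1, and the difference was -0.53 without epithelium replicate 2. The eyelid difference of -0.63 did not pass (adjusted p = 0.0754) unless the slide was a block (adjusted p = 0.0408). The dependence on tissue passed with F = 23.9.

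Timp4 was low in every epithelium and highest in LG mesenchyme. LG mesenchyme read 0.22, 0.09 and 0.06 against -3.78, -2.78 and -3.41 in LG epithelium, and HG mesenchyme -1.26, -1.47 and -1.33 against -3.39, -3.69 and -4.53. In the eyelid, epithelium (-3.41, -2.58 and -2.49) and mesenchyme (-2.45, -2.29 and -3.09) overlapped. The differences were -3.44 (adjusted p = 2.45e-06), -2.52 (adjusted p = 8.96e-05) and -0.22 (adjusted p = 0.722), and F was 13.9.

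**Figure D3:**
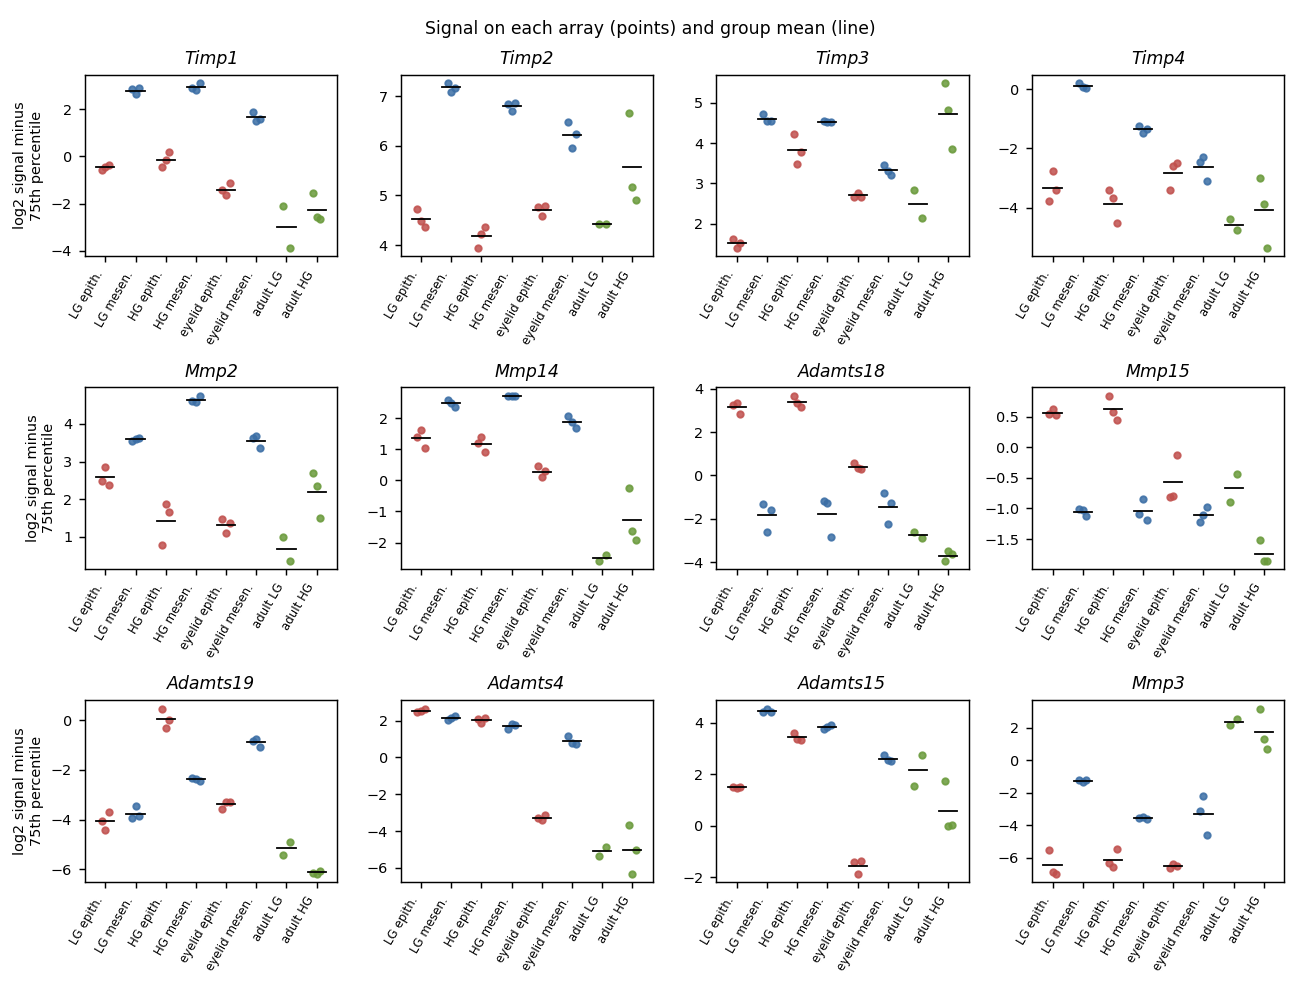
Each panel is 1 member, the y axis its signal (log2 minus the array's 75th percentile) and the x axis the 8 groups; points are arrays, coloured red for epithelium, blue for mesenchyme and green for whole adult gland, and the line is the group mean. Timp1 shows a step of -3.06 to -3.25 in the 3 tissues, Timp3 a step mainly in LG, Adamts4 a drop in eyelid epithelium and in both adult glands, and Mmp3 its highest values in the adult glands.

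The gelatinases Mmp2 and Mmp9, which cut denatured collagen and basement membrane collagen, were lower in epithelium. Mmp2 read 2.49, 2.86 and 2.37 in LG epithelium and 3.55, 3.61 and 3.62 in LG mesenchyme. Its gap was larger in the HG, with 0.77, 1.86 and 1.66 against 4.61, 4.58 and 4.75, and in the eyelid, with 1.47, 1.09 and 1.35 against 3.62, 3.67 and 3.36. The compartments did not overlap in any tissue, the differences were -1.02, -3.22 and -2.25, and they depended on tissue (F = 15.4). Mmp9 was not well above background on any of the 9 epithelial arrays. It read -3.89, -3.55 and -3.87 in LG mesenchyme, -3.60, -3.12 and -4.09 in HG mesenchyme, and -2.06, -4.10 and -4.27 in eyelid mesenchyme. Where a group is below background throughout, a fold is given as a bound, the brighter group's mean against the higher of the dim probe's own signal and the lowest signal well above background on each array. For Mmp9 the mesenchymes were at least 2.32-fold higher.

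The collagenase, stromelysins and matrilysin of chromosome 9 were dim in the embryo. Mmp8, the neutrophil collagenase, read -0.58, -0.56 and -0.90 in HG mesenchyme, -2.52, -2.68 and -3.08 in LG mesenchyme, and -1.76, -2.52 and -2.97 in eyelid mesenchyme, while LG epithelium had no array above background. Summed neutrophil markers (8 genes such as S100a8 and Camp) were 116 to 173 in HG mesenchyme, 14.5 to 21.5 in LG mesenchyme and 18.4 to 38.9 in eyelid mesenchyme, so among the embryonic mesenchymes they were highest where Mmp8 was. In the adult glands the sums were 292 to 318 in LG and 109 to 137 in HG, although 4 and 3 of the 8 markers were above background on no array there, and no adult array was above background for Mmp8. The part of neutrophils in the Mmp8 values was not tested. Mmp3, which also activates other metalloproteinase precursors, read -1.21, -1.31 and -1.19 in LG mesenchyme, -3.54, -3.45 and -3.62 in HG mesenchyme, and -3.14, -2.20 and -4.61 in eyelid mesenchyme, with 2 of these last 3 above background. None of the 9 epithelial arrays was above background for Mmp3, and the mesenchymes were at least 4.39-fold higher. Mmp7, matrilysin, went the other way in the eyelid, with -4.02, -3.68 and -2.65 in epithelium and no mesenchymal array above background. That eyelid difference was 2.35 (adjusted p = 0.00314, at least 2.39-fold), whereas Mmp7 was mostly below background in embryonic LG and HG. Mmp7 passed the filter only through eyelid epithelium, the group where it was high, so that p-value is no independent support.

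Mmp11, which is activated inside the cell by furin, was lower in HG and eyelid epithelium than in the mesenchyme beside it. It read 0.88, 0.90 and 1.35 against 3.20, 3.30 and 3.68 in HG, and 1.77, 2.14 and 2.47 against 3.91, 4.42 and 4.61 in the eyelid. In LG it read 0.71, 0.58 and 1.03 against 1.37, 1.64 and 1.74. The differences were -2.35 and -2.19 in HG and eyelid, and -0.81 in LG, where the test did not pass (adjusted p = 0.0658) unless the slide was a block (adjusted p = 0.0283). Mmp19 was above background only in mesenchyme among the embryonic groups, at -1.17, -1.36 and -1.23 in LG and -3.13, -2.90 and -3.39 in HG, at least 14.8-fold and 3.0-fold over the epithelium.

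The membrane-type enzymes, which act at the cell surface, did not follow 1 pattern. Mmp14, the main activator of Mmp2, was lower in epithelium in every tissue. LG gave 1.40, 1.63 and 1.05 against 2.59, 2.49 and 2.37, HG 1.21, 1.40 and 0.93 against 2.70, 2.71 and 2.72, and the eyelid 0.45, 0.09 and 0.29 against 2.07, 1.88 and 1.69. The differences of -1.12, -1.53 and -1.61 did not pass the test of dependence on tissue (F = 0.806). Mmp15, its close relative, was higher in epithelium, with 0.55, 0.62 and 0.52 against -1.01, -1.03 and -1.12 in LG and 0.84, 0.58 and 0.44 against -1.09, -0.84 and -1.19 in HG. The eyelid read -0.81, -0.79 and -0.12 against -1.22, -1.10 and -0.98, without overlap. The differences were 1.62 (3.07-fold), 1.66 (3.16-fold) and 0.53, and the last was 0.30 with an adjusted p of 0.151 without eyelid epithelium replicate 3. Without eyelid mesenchyme replicate 1 it was 0.47 (adjusted p = 0.0721).

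Mmp16 was above background in LG mesenchyme (-4.02, -4.51 and -4.05) and HG mesenchyme (-2.72, -3.0 and -2.71) and on no array of the other 6 groups. Mmp17, which is held at the surface by a glycolipid anchor, differed in direction between tissues. It was lower in epithelium in LG (-1.04, -0.63 and -0.85 against -0.42, 0.05 and -0.36) and in the eyelid (-2.30, -1.95 and -2.26 against 0.41, 0.64 and 0.66). In HG it was higher in epithelium (-0.52, -0.79 and -0.89 against -1.66, -1.26 and -1.64). The differences were -0.59, -2.74 and 0.79 (F = 52.6). Mmp23 stood out in eyelid mesenchyme at 2.36, 1.83 and 1.72 against -1.28, -1.10 and -0.87 in eyelid epithelium, and its LG and HG differences (-0.64 and -0.55) did not pass. Summed skeletal muscle markers were 61.5 to 121 in eyelid mesenchyme and at most 6.98 in the other embryonic groups, and their part in the Mmp23 value was not tested.

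Of the proteoglycanases, Adamts enzymes that cut versican and aggrecan, 6 of 7 were tested. Adamts1 and Adamts5 were lower in epithelium in each tissue. Adamts1 read 0.41, 0.50 and 1.11 against 4.42, 4.50 and 4.74 in LG, 1.0, 1.47 and 1.77 against 3.63, 4.04 and 4.14 in HG, and 0.67, 0.82 and 2.07 against 1.91, 1.98 and 2.31 in the eyelid, where 1 epithelial array overlapped the mesenchyme. The differences fell in size from -3.88 in LG to -2.52 in HG and -0.88 in the eyelid (F = 21.1). Adamts5 read -3.0, -3.0 and -3.24 against 1.65, 1.65 and 1.97 in LG, a 28.6-fold difference. It read -5.44, -4.39 and -3.63 against -1.08, -1.15 and -1.11 in HG, where 1 epithelial array was above background.

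Adamts4 set the eyelid apart from the glands. In LG and HG both compartments were bright, with 2.45, 2.50 and 2.66 against 2.06, 2.14 and 2.23, and 2.11, 1.89 and 2.16 against 1.57, 1.81 and 1.76. In the eyelid the epithelium read -3.28, -3.41 and -3.11 and the mesenchyme 1.17, 0.78 and 0.75. The eyelid difference was -4.16 (adjusted p = 5.85e-08) and those of LG and HG were 0.39 (adjusted p = 0.415) and 0.34 (adjusted p = 0.485), with F = 44.7 for the dependence on tissue. Adamts15 was lower in epithelium in LG (1.51, 1.48 and 1.52 against 4.40, 4.54 and 4.42) and in the eyelid (-1.41, -1.86 and -1.37 against 2.75, 2.56 and 2.49). In HG it read 3.61, 3.35 and 3.32 against 3.76, 3.83 and 3.89, and that difference of -0.40 did not pass (adjusted p = 0.340).

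Adamts9 was lower in epithelium in LG and eyelid and higher in HG, with differences of -1.32, -2.28 and 0.69 (F = 35.1). The HG call was lost without HG epithelium replicate 1 (0.58) and without HG mesenchyme replicate 1 or 3 (0.67 each). Its HG arrays read 3.04, 2.71 and 2.72 in epithelium and 2.10, 2.20 and 2.10 in mesenchyme, and its LG arrays 1.85, 1.77 and 1.79 and 2.97, 3.25 and 3.14. For Adamts8 the 2 probes disagreed. On the brighter probe epithelium was higher in LG (difference 1.51, adjusted p = 0.00434) and lower in the eyelid (-4.29), whereas on the other probe the differences were -1.76 in LG, -1.24 in HG and -1.05 in the eyelid. Adamts8 therefore has no settled direction in the glands.

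The procollagen proteinases, which remove the amino-terminal propeptide, were led by Adamts2. It read 0.10, 0.10 and -0.33 against 4.92, 4.98 and 5.03 in LG, 0.16, 1.32 and 1.38 against 4.78, 4.80 and 4.84 in HG, and -0.35, -0.42 and -0.24 against 4.43, 4.13 and 4.35 in the eyelid. No epithelial array came near the mesenchymal ones. Averaged over the 3 tissues Adamts2 was 22.7-fold lower in epithelium (-4.51 ± 0.18 SE, adjusted p = 2.72e-13), within slides 1, 2 and 3 by -4.74, -4.30 and -4.47, and its dimmer probe gave -3.21. On its brighter probe Adamts14 was lower in LG epithelium, at 2.39, 2.53 and 2.58 against 4.51, 4.50 and 4.59 (difference -2.03), and its other probe gave -0.20 there. Adamts3, the third of these enzymes, was higher in LG epithelium by 0.67 (adjusted p = 0.0234), a call lost without replicate 1 or 2 of either LG compartment (0.60 to 0.66).

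Adamts7 and Adamts12 cut cartilage oligomeric matrix protein. Adamts12 was lower in epithelium in each tissue (-3.12, -2.20 and -1.31), and Adamts7 by -1.65 in HG and -2.90 in the eyelid. In LG the Adamts7 difference of -0.43 did not pass (adjusted p = 0.177) unless the slide was a block (adjusted p = 0.0491). Adamts6, a relative of the fibrillin-binding Adamts10, was above background only in HG mesenchyme (-2.84, -3.12 and -2.96) and eyelid mesenchyme (-4.07, -3.83 and -3.92), at least 3.37-fold and 1.61-fold over the epithelia. Adamts10 was lower in epithelium in each tissue, by -1.11, -0.98 and -1.99.

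Adamts18, whose substrates are less well known, had the largest difference among the 3 members that were higher in epithelium. It read 3.25, 3.34 and 2.85 in LG epithelium against -1.32, -2.61 and -1.60 in LG mesenchyme. HG gave 3.69, 3.37 and 3.17 against -1.19, -1.25 and -2.84, and the eyelid 0.60, 0.32 and 0.29 against -0.82, -2.25 and -1.29. The compartments did not overlap in any tissue. Over the 3 tissues the difference was 4.0 ± 0.23 SE (16.0-fold, adjusted p = 2.62e-11; 3.62, 4.38 and 4.01 within slides 1, 2 and 3). It was 4.99 in LG, 5.17 in HG and 1.85 in the eyelid, and depended on tissue (F = 21.1).

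Adamts19 had the strongest dependence on tissue among the members (F = 145, adjusted p = 2.12e-09). It read 0.47, -0.30 and 0.02 in HG epithelium against -2.31, -2.39 and -2.45 in HG mesenchyme, a difference of 2.44. In the eyelid the order turned, with -3.56, -3.31 and -3.30 in epithelium against -0.83, -0.76 and -1.06 in mesenchyme, a difference of -2.51. In LG both compartments were low (-4.04, -4.41 and -3.70, and -3.94, -3.45 and -3.87) and the difference of -0.30 did not pass. Of the 35 tested members 24 depended on tissue by this F test, against 42.3 percent of all genes.

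The LG and HG mesenchymes differed in 16 members, with 9 higher and 7 lower in LG, while 14.3 percent of all genes were called (6.46 percent higher and 7.84 percent lower). Of the 29 members above background on every array of both, 8 were higher and 6 lower. Adamts16 had the largest difference. It read 0.64, 0.70 and 0.62 in LG mesenchyme and -4.59, -4.30 and -5.20 in HG mesenchyme, where 1 of 3 arrays was above background. The difference was 5.35 ± 0.38 SE (40.7-fold, adjusted p = 1.90e-08), and a dimmer Adamts16 probe that did not pass the filter gave 1.25.

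Adamts17 read 5.05, 5.04 and 5.11 in LG mesenchyme and 2.30, 2.28 and 2.25 in HG mesenchyme, a difference of 2.79, and its other probe gave 2.29. Adamts14 read 1.28, 1.28 and 1.04 in HG mesenchyme, 3.33 below its LG values given above, and its other probe gave 1.56. Adamts5 was higher in LG mesenchyme by 2.87, Mmp3 by 2.30, Mmp19 by 1.89, Timp4 by 1.48, Mmp17 by 1.27 and Adamts9 by 0.99. LG mesenchyme was lower in Adamts6 by -4.05 (at least 4.77-fold), Mmp11 by -1.81, Mmp16 by -1.38, Adamts19 by -1.37, Adamts8 by -1.28 and Mmp2 by -1.06, but the other Adamts8 probe gave 0.52. Mmp8 was lower by -2.08 with an adjusted p of 0.0371. The calls of Mmp8 and Timp4 were lost with any of the 6 arrays left out, with differences of -1.92 to -2.20 and 1.42 to 1.52, and the neutrophil marker sums given above moved with Mmp8. With an array left out 11 to 13 members were called instead of 16, so calls beyond these 2 were lost. Mmp19, Mmp17, Adamts9, Adamts8 and Mmp2 were not followed singly there, so their calls may not be stable.

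**Figure D4:**
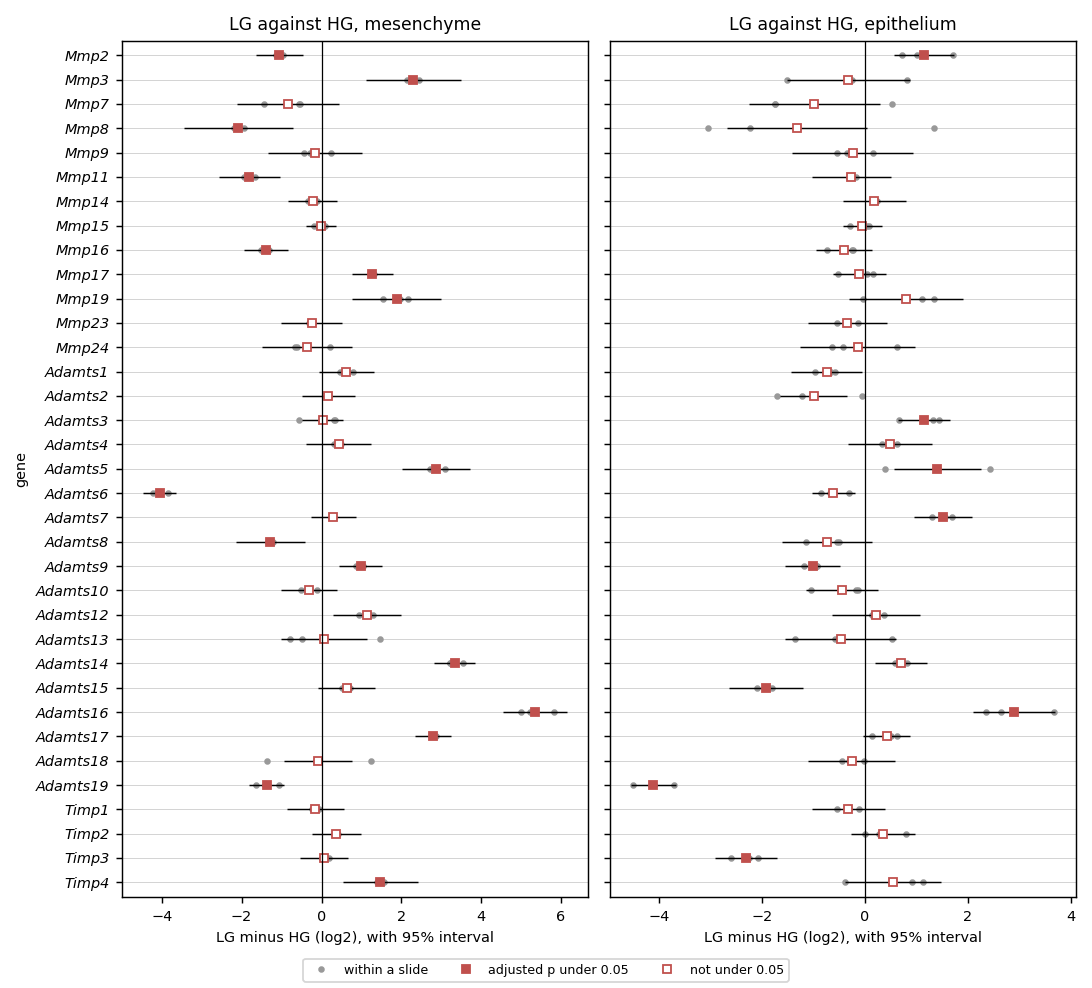
The x axis is LG minus HG (log2) in mesenchyme (left) and epithelium (right) at embryonic day 16.5, and the y axis lists the 35 tested members; squares are estimates from 3 against 3 arrays with 95% intervals, filled where the adjusted p was under 0.05, and grey points are values within a slide. Adamts16 lies far right in both panels, Adamts6 far left in mesenchyme, and Adamts19 and Timp3 far left in epithelium.

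The LG and HG epithelia differed in 9 members, 5 higher and 4 lower in LG, while 6.35 percent of all genes were called (2.97 percent higher and 3.39 percent lower). Above background on every array of both groups were 21 members, of which 2 were higher and 4 lower. HG epithelium was higher in Adamts19 by 17.3-fold (difference -4.11 ± 0.21 SE, adjusted p = 6.82e-10), in Timp3 by 4.97-fold (-2.31), in Adamts15 by 3.80-fold (-1.92) and in Adamts9 by 2.03-fold (-1.02). LG epithelium was higher in Adamts7 by 1.52, with -0.36, -0.46 and 0.21 against -1.92, -1.76 and -1.47. It was also higher in Adamts16 (-3.04, -3.16 and -3.43, at least 2.86-fold over HG epithelium, where no array was above background), Mmp2 (1.15) and Adamts3 (1.14). Adamts5 was higher by 1.40 with an adjusted p of 0.0446, which became 0.0551 with the slide as a block. That call was lost with any array but HG epithelium replicate 3 left out (0.92 without HG epithelium replicate 1). Mmp2 was no longer called without HG epithelium replicate 1 (0.82) or LG epithelium replicate 2 (1.0), nor Adamts9 without any LG epithelium array or HG epithelium replicate 1 (-0.91 to -1.04). Quantile normalization called 3 higher and 4 lower, and normexp background correction 4 and 6.

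Against eyelid epithelium, LG epithelium was higher in 14 members and lower in 5, against 45.5 percent of all genes called (27.2 higher and 18.3 lower), and HG epithelium was higher in 17 and lower in 2, against 44.6 percent (26.6 higher and 18 lower). Of the 5 lower in LG epithelium, 1 was above background on no eyelid epithelium array, so that call follows the background. Scaling to the median of each array, which moved the median difference of all genes by 0.227, gave 15 higher and 2 lower for LG. Adamts4 led in both, 55.8-fold higher in LG (5.80, adjusted p = 9.27e-10) and 39.9-fold higher in HG (5.32). Adamts15 was higher by 3.05 and 4.97, Adamts7 by 3.26 and 1.75, Adamts18 by 2.74 and 3.0, and Adamts9 by 1.94 and 2.96 in LG and HG. Adamts8 was higher by 3.11 and 3.85, but its other probe gave -0.14 and -0.13. The 2 comparisons share the eyelid arrays. Mmp11 was lower in both glands (-1.35 and -1.08), the HG call being lost without HG epithelium replicate 1 or 2 or eyelid epithelium replicate 2 or 3 (-0.91 to -1.08), and Timp3 was lower in LG (-1.19) and higher in HG (1.13).

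Against eyelid mesenchyme, LG mesenchyme was higher in 18 members and lower in 6 (31.2 percent of all genes called, 15.5 higher and 15.7 lower), and HG mesenchyme was higher in 10 and lower in 6 (22.4 percent, 11.1 higher and 11.3 lower). Adamts5 was 19.4-fold higher in LG (4.28), with -1.86, -2.68 and -3.02 in eyelid mesenchyme, and 2.65-fold higher in HG (1.41, not called without eyelid mesenchyme replicate 2 or 3, 1.32 and 1.16). LG was also higher in Adamts17 by 3.08, Adamts16 by 2.95, Mmp19 by 2.86, Timp4 by 2.73 and Adamts1 by 2.49. Timp1 was higher in both glands (1.13 and 1.28, the LG call lost without eyelid mesenchyme replicate 2 or LG mesenchyme replicate 3), as was Timp3 (1.27 and 1.20). Eyelid mesenchyme was higher than both in Mmp23 (differences -1.77 and -1.52), Adamts19 (-2.87 and -1.50) and Mmp17 (-0.81 and -2.09). It was also higher than LG mesenchyme in Mmp11 (-2.73) and Adamts6 (-3.08). No LG mesenchyme array was above background for Adamts6, so the size of that difference follows the background. Mmp13, a collagenase known from bone and skin, did not pass the filter. It was above background on 2 of 3 eyelid mesenchyme arrays (-1.42, -2.23 and -4.87) and on 1 adult HG array.

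The whole adult glands differed in 24 members, 10 higher and 14 lower in LG, while 55.6 percent of all genes were called (22.4 percent higher and 33.2 percent lower). Of the 10 higher, 6 were above background on no array of the adult LG, so their difference follows the background. Above background on every array of both glands were 12 members, 3 higher and 8 lower. The split depended on the scaling, with 3 higher and 14 lower after median scaling (all-gene shift -0.248), 5 and 17 after quantile normalization, and 18 and 7 after normexp correction (shift 0.193). A fit of the 5 adult arrays alone called 7 members, 2 higher and 5 lower.

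Timp3 read 2.84 and 2.14 in adult LG and 5.49, 4.82 and 3.85 in adult HG, 4.70-fold lower in LG (-2.23, adjusted p = 1.11e-05), with -1.98 and -1.71 within slides 2 and 3. Mmp2 read 0.98 and 0.35 against 2.70, 2.34 and 1.49 (-1.51), and Mmp11 read -2.15 and -1.06 against 1.36, -0.43 and 1.0 (-2.25). Adamts1 was lower by -2.63 (-2.25 and -2.30 against 0.82 and -0.11), with adult HG replicate 3 missing because its spot was flagged as an outlier. None of these 4 overlapped between the glands. With 2 against 3 arrays the same held for 23 of the 35 tested members, and its share over all genes was not counted, so it does not set these 4 apart. Mmp9 read -0.73, -2.84 and -2.47 in adult HG and was not above background in adult LG, at least 2.03-fold lower, but the difference was -1.32 with an adjusted p of 0.148 without adult LG replicate 1. Timp2 was lower by -1.16, or by -0.62 without adult HG replicate 1, and its other probe gave 0.12. Adamts2 was lower by -1.37, and its other probe gave 0.05.

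Higher in the adult LG were Mmp15 (-0.89 and -0.44 against -1.52, -1.85 and -1.86, difference 1.08, adjusted p = 0.000191) and Mmp7 (difference 1.75, adjusted p = 0.0356, above background on 1 of 2 LG arrays). Adamts15 was higher by 1.56, with 1.55 and 2.75 in LG overlapping 1.74, -0.01 and 0.04 in HG, and by 0.96 with an adjusted p of 0.0803 without adult LG replicate 2. Mmp17 was higher by 0.83, a call lost without adult HG replicate 3 (0.46) or adult LG replicate 1 (0.73). Adamts13, the protease that cuts von Willebrand factor, was above background only in adult HG among the 8 groups (-4.01, -2.88 and -2.99). It passed the filter through that group alone. With no adult LG array above background, no difference between the glands is given for it. Mesenchymal marker sums were lower in adult LG than in adult HG, and their part in the members that were lower in LG was not tested.

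Compared with the mean of its embryonic compartments, each adult gland was lower in most members. Adult LG was higher in 4 and lower in 25 (70.4 percent of all genes called, 31.6 percent higher and 38.9 percent lower), and adult HG was higher in 5 and lower in 24 (71.6 percent, 34.2 and 37.4 percent). Of the 4 called higher in adult LG, Mmp16 and Adamts6 were above background on no adult LG array. Among the 5 called higher in adult HG, Adamts13 passed the filter only through that group. The members' medians were -1.50 and -1.46 against -0.09 and -0.02 for all genes. Of the 12 members above background on every LG array and the 14 on every HG array, 0 were higher and 11 were lower in each gland. Without the share of all genes under the same restriction, these counts cannot be called particular to the members. After normexp correction, which moved the all-gene median by 0.236, adult LG was higher in 10 and lower in 20. The embryonic reference is a mean of log2 values of separated compartments, not a whole gland, and mesenchymal marker sums were far lower in adult LG than in embryonic mesenchyme; the part of tissue makeup was not tested.

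Mmp3 was the exception in both glands. It read 2.19 and 2.57 in adult LG and 3.19, 1.33 and 0.71 in adult HG, above every embryonic array. It was at least 47.3-fold higher in adult LG (adjusted p = 1.60e-08) and at least 58.7-fold higher in adult HG (adjusted p = 7.97e-10), where the embryonic epithelia, below background throughout, entered at the lowest signal well above background. The 2 adult glands overlapped in Mmp3 (difference 0.63, adjusted p = 0.416). Mmp7 was called higher in adult LG (-3.27 and -3.68), but only 1 of 2 arrays was above background. Mmp21, above background on no array, also differed by 2.07 in that comparison, so no fold is given for Mmp7. In adult HG Mmp9 was at least 4.44-fold higher and Adamts13 at least 2.68-fold. Adamts13 passed the filter only through adult HG, the group where it was high, so its call is no independent support. The dimmer Adamts13 probe gave 0.42. Mmp19, on 2 of 3 arrays above background and overlapping the embryonic arrays, was at least 1.07-fold higher. Adamts5 was higher in adult HG by 0.95, or by 0.52 with an adjusted p of 0.207 without adult HG replicate 1, and its other probe gave 0.43. Its adult HG mean (-1.85) lay below embryonic HG mesenchyme (-1.11) and above HG epithelium (-4.48, 1 of 3 arrays above background).

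The largest falls with age were those of Adamts genes. Adamts17 was above background on every array of both embryonic compartments and above background on no adult array, at least 100.1-fold lower in adult LG and 69.3-fold lower in adult HG, and its other probe gave -2.26 and -2.09. Adamts4 was at least 41.5-fold lower in adult LG, and in adult HG it read -3.68, -6.32 and -5.04 with 1 array above background (difference -6.90). Adamts7 was at least 8.28-fold lower in adult LG and 9.34-fold lower in adult HG. The differences in LG and HG were -4.86 and -3.98 for Adamts9, -3.41 and -4.52 for Adamts18, and -4.89 and -2.32 for Adamts1. Adamts9 and Adamts18 were above background on 1 of 2 adult LG arrays, Adamts18 on 1 of 3 adult HG arrays, and Adamts1 had 2 adult HG values. Adamts14 gave -4.95 and -2.15, but its other probe gave 0.16 and 1.08. Adamts19 was at least 7.74-fold lower in adult HG.

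Among inhibitors and membrane-type enzymes, Timp1 and Mmp14 fell in both glands. Timp1 read -2.11 and -3.89 in adult LG and -1.57, -2.59 and -2.64 in adult HG, below every embryonic LG and HG array and above background on 1 of 2 LG arrays, with differences of -4.16 and -3.66 (adjusted p = 3.00e-09 and 1.91e-09). Mmp14 read -2.59 and -2.39 in adult LG and -0.25, -1.63 and -1.91 in adult HG, with differences of -4.41 and -3.21. Timp4 was at least 2.70-fold lower in adult LG and lower by -1.46 in adult HG, or by -0.81 without adult HG replicate 3. Timp2 was lower in adult LG (-1.43) and did not pass in adult HG (0.08, adjusted p = 0.779), and its other probe gave -0.16 and -0.11. Timp3 did not pass in LG (-0.57) or in HG (0.54, adjusted p = 0.0597), the latter called with the slide as a block (adjusted p = 0.0336).

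**Figure D5:**
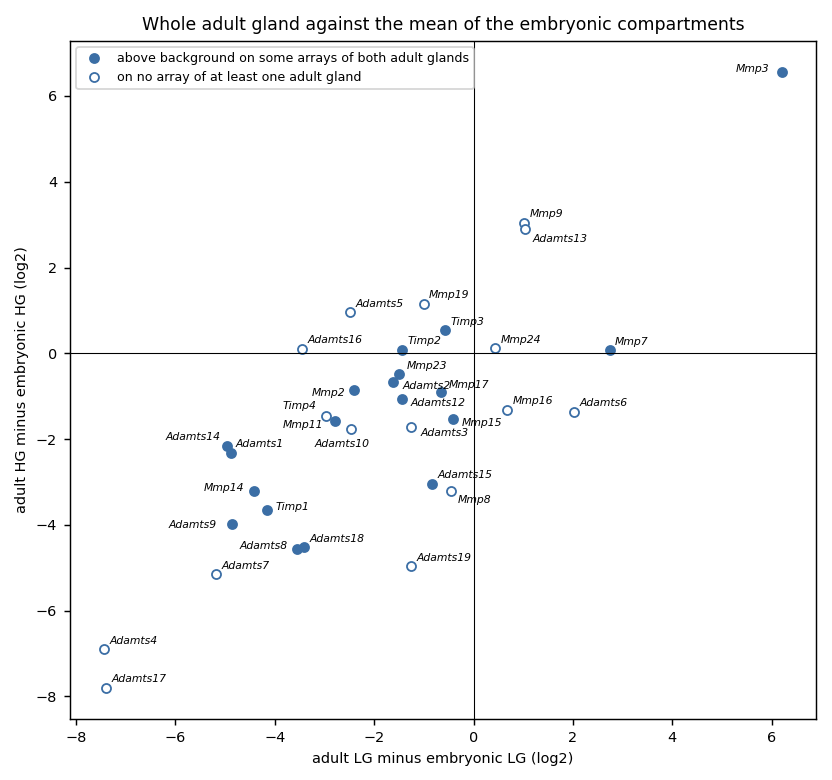
The x axis is adult LG minus the mean of embryonic LG epithelium and mesenchyme and the y axis the same for HG (log2); each point is 1 of the 35 tested members, filled where some array of each adult gland was above background and open otherwise. Mmp3 stands alone at the upper right, most Adamts genes lie at the lower left, and Adamts17 and Adamts4 are lowest in both glands.

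Other genes of the pathway were taken from lists by role. In epithelium against mesenchyme over 3 tissues, where 38.7 percent of all genes were higher and 31.9 percent lower, activators and cofactors of metalloproteinases had 12 of 13 genes tested, 3 higher and 7 lower. Plaur, the urokinase receptor, was lower by -2.92 and Cd44, a hyaluronan receptor that can hold Mmp9 at the surface, by -1.87, while Cldn1 was higher by 2.84. Of other inhibitors and clearance genes 10 of 13 were tested, 1 higher and 6 lower, led by Pcolce (-4.37), an enhancer of procollagen C-proteinase, and Reck (-4.16), a membrane-bound inhibitor of metalloproteinases, with Sfrp1 higher (2.31). Adamts-like proteins, which have no protease domain, had 5 of 7 tested, 1 higher (Papln, 2.32) and 4 lower (Thsd4, -4.15). Substrates had 17 of 19 tested, 1 higher (Col2a1, 2.82) and 15 lower, such as Eln (-4.34) and Col3a1 (-4.24). Adam membrane proteases had 9 of 9 tested, 2 higher (Adam28, 2.79) and 4 lower (Adam19, -3.89), and other matrix proteases 12 of 14, 0 higher and 9 lower, led by Ctsk (-4.29) and Fap (-3.79).

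Between LG and HG mesenchyme, where 14.3 percent of all genes were called, the list of activators and cofactors had 3 higher and 5 lower in LG. Plau, urokinase, was higher by 1.80. The testicans Spock3 (-4.99) and Spock1 (-3.21) were lower. They were placed on that list, but whether they activate or inhibit metalloproteinases was not examined, so the list's count is not a direction of activation. Substrates had 2 higher and 2 lower, Eln among the latter (-1.84). Between the epithelia, where 6.35 percent of all genes were called, the basement membrane chains Col4a1 and Col4a2 were higher in LG by 1.41 and 1.37, and the meprin subunit Mep1a was lower by -4.60. With age, substrates were higher in 3 and lower in 12 of 17 in LG and higher in 3 and lower in 13 of 17 in HG, against 70.4 and 71.6 percent of all genes called in either direction. Versican (Vcan), the substrate of Adamts1, Adamts4, Adamts5 and Adamts9, differed by -6.53 and -6.34, and Fbn2 by -6.63 and -6.21. Eln differed by 4.09 in LG and -2.66 in HG. Adam12 was higher in both adult glands (3.10 and 4.0).

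The members that did not pass the filter were Mmp1a, Mmp1b, Mmp10, Mmp12, Mmp13, Mmp20, Mmp21, Mmp25, Mmp28 and Adamts20. Mmp12, the macrophage elastase, was above background on 1 array, adult LG replicate 1 (-2.78). Mmp25, a surface enzyme of leukocytes, was above background on 2 of 3 LG mesenchyme arrays and 1 HG mesenchyme array. Apart from these and Mmp13, the members named here were above background on no array.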

How the data were processed

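Total RNA of 23 samples was labelled with Cy3 and read on 1-colour Agilent mouse arrays on 3 slides. Replicate numbers name the slide, apart from adult LG, whose replicates 1 and 2 lay on slides 2 and 3. The deposited scanner files give each spot's intensity after background subtraction by the authors' software, Agilent Feature Extraction (11.5.1.1 per the submitters' processing notes, 11.0.1.1 on slide 1 per the file headers), and flags of other kinds that the authors deposited. Outlier spots were dropped, which left 134 probe values missing. Spots of a probe were averaged, log2 was taken and the 75th percentile of the array was subtracted.

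Probes were named through RefSeq accessions (27509 of 55681 matched, 20887 symbols). Kept were probes whose spots, to a share of 0.5 or more, exceeded background on all arrays of some group; the brightest probe on average represented the gene. A single limma 3.58.1 fit (lmFit and eBayes, R 4.3.3) with 8 group means covered all 23 arrays, with Benjamini-Hochberg adjustment over 16323 genes and a threshold of 0.05. Figures used matplotlib 3.10.9, pandas 2.3.3 and numpy 2.4.6. The fit was tested on simulated data in which arrays scattered independently, without a slide effect. That test does not cover the deviations shared by same-numbered arrays that are described below. The number of arrays limits the precision.

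Same-numbered arrays deviated together in every pair (correlation 0.171 to 0.578) of the 9 comparisons between single embryonic groups, so the slide was also fitted as a block. In adult HG against embryonic HG not every pair did (lowest -0.122). Same-numbered adult LG arrays lay on other slides than their partners, so their pairs (lowest -0.340) cannot show whether a slide effect was shared. Alternatives were median and quantile scaling, normexp correction (offset 50) on median signals because no mean signals were found in the files, the authors' series matrix values, other probe and filter rules, a fit of only the groups compared, and each array left out. The symbol alone chose the members, so any could be named. Values on every array were planned for Timp genes and, among called members above background throughout the brighter group, for the 10 largest differences per direction between compartments, the 5 largest per direction elsewhere and the 5 largest F values; some others are added. Members, marker lists and pathway lists were chosen with earlier results of these data known.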

Additional observations from a re-analysis of the deposited data

Results flagged for a closer look

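In 24 members the gap from mesenchyme to epithelium was not the same in LG, HG and eyelid by the moderated F test of limma, and they are listed for that reason. The largest F values were those of Adamts19 (145), Adamts6 (83.3), Adamts8 (59.7), Mmp17 (52.6), Adamts17 (50.4), Adamts4 (44.7), Mmp16 (39.6) and Adamts9 (35.1). Adamts6 and Mmp16 were not above background in any epithelium, so their F values follow the mesenchymes, and the Adamts8 value rests on a probe that its other probe does not match in direction. Intermediate values were found for Adamts14 (32.0), Adamts15 (30.8), Adamts3 (25.4), Timp3 (23.9), Adamts7 (21.5), Adamts18 (21.1), Adamts1 (21.1), Mmp2 (15.4) and Mmp23 (15.4). Lower values were found for Timp4 (13.9), Mmp15 (12.7), Adamts16 (10.6), Mmp3 (5.86), Mmp11 (5.40), Adamts12 (5.0) and Timp2 (4.85).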

How the results depend on the processing

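The count of members called stayed within 1.5 times the main count under every alternative, with 1 exception: a fit of the 5 adult arrays alone called 7 members between the adult glands. With the slide as a block, 3 members were higher and 29 lower in epithelium over 3 tissues. By tissue it gave 4 and 24 in LG, 6 and 21 in HG, and 3 and 27 in the eyelid. Between LG and HG mesenchyme that block called 10 higher and 7 lower in LG, and between their epithelia 4 and 4. A block on the replicate number does not match the slide for adult LG. That block called 33 members over 3 tissues, 27 in LG, 27 in HG and 30 in the eyelid. It called 15 between LG and HG mesenchyme and 8 between their epithelia. With an array left out, the count lay between 31 and 33 over 3 tissues, 11 and 13 between LG and HG mesenchyme, 6 and 9 between their epithelia, and 17 and 24 between the adult glands. Over the values of single members, 2617 alternatives kept direction and call, 106 lost the call, 30 gained it and 13 turned direction. Adamts8 in LG turned to -0.13 with the mean of its probes. Timp2 in LG against eyelid epithelium turned to 0.041 with median scaling. Between the adult glands, normexp turned Adamts13 to 0.19, Timp1 to 0.26 and Timp4 to 0.48. Timp2 in adult against embryonic HG turned to -0.066 with median scaling, -0.25 with quantile normalization, -0.016 with normexp and -0.011 with the mean of probes. With an array left out, Timp4 in the eyelid ranged from -0.46 to 0.074, Timp1 between the adult glands from -1.63 to 0.16, Timp4 there from -1.15 to 0.045, and Timp2 in adult against embryonic HG from -0.46 to 0.42. The cause of these turns was not tested. The low signal of the adult LG arrays limits what can be said of dim members there.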
